A study of Macaca mulatta with 28 samples.

Results

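The immediate early genes FOS, FOSB, JUNB, EGR1, EGR2, EGR3, ARC, NR4A1 and NPAS4 were followed in 28 RNA-seq libraries made from blocks of macaque brain that contained the central nucleus of the amygdala (CeA). The 9 genes were taken by symbol as well-known members of the class, with earlier results of these data known. All 9 were among the 15521 genes of the deposited gene table. Immediate early genes are transcribed within minutes of a stimulus from factors already present in the cell, and in neurons they are widely read as markers of recent synaptic activity. Most of them encode transcription factors that go on to regulate later genes, while ARC acts directly at the synapse. In the CeA, a nucleus that links stress and reward signals, FOS and its relatives are classic markers of cells engaged by drugs, stress and withdrawal.

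Each library came from 1 male rhesus macaque, and all 28 animals drank ethanol, so no group lacked exposure. They were induced to drink 4% (w/v) ethanol over about 90 days and then had open access for 22 hours a day over 2 periods of about 6 months. The labels class 10 animals as low drinkers (LD) and 5 as binge drinkers (BD, 2 g/kg or more on 55% or more of days, with blood ethanol of 80 mg/dl or more recorded yearly). Another 7 were heavy drinkers (HD, 3 g/kg or more on 20% or more of days), and 6 were very heavy drinkers (VHD, a daily mean above 3 g/kg with over 4 g/kg on 10% or more of days). LD animals met none of these definitions. For a 2-way comparison the 13 HD and VHD animals are called heavy and the 15 LD and BD animals low. Cohort 4 held 8 animals (mean age 8.24 years at induction and 9.98 after open access; 4 LD, 3 BD, 1 HD), cohort 5 held 7 (5.63 and 7.15 years; 3 HD, 4 VHD), cohort 7a held 8 (4.18 and 5.7 years; 3 LD, 1 BD, 2 HD, 2 VHD) and cohort 7b held 5 (5.69 and 7.18 years; 3 LD, 1 BD, 1 HD). In all groups necropsy fell at the hour when a drinking session would normally start, under ketamine and isoflurane, and the brain was perfused with cold artificial cerebrospinal fluid before the block was cut. The values therefore describe animals that had not yet begun the day's session, and no sample taken during drinking was analysed here. What anaesthesia, handling or the previous session added to these values was not tested. An animal is named by its category and a number given in the order of the samples.

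The libraries held 1910514 to 25928489 reads over genes (median 16444833), and expression is given in normalized reads, the authors' reads per gene scaled by an upper-quartile factor per library. The shallowest library, BD 1, held only 6 reads of EGR2, 7 of FOSB and 10 of NPAS4. Its NPAS4 value of 80.2 had an exact Poisson 95% interval of 38.4 to 147, which covers counting error only. Markers of GABAergic and of central amygdala neurons had reads in every library, which does not show how much of a block was CeA. The summed value of 3 GABAergic genes ranged from 7169 to 23414 normalized reads, and that of 5 genes of central amygdala neurons from 2243 to 8126. The blocks also differed in content. The 3 cholinergic genes CHAT, SLC5A7 and SLC18A3 mark cholinergic neurons such as those of the nearby basal forebrain. They summed to between 27.1 and 14178, and 5 striatal genes to between 3321 and 44112. The sum of 4 cortical and basolateral glutamatergic genes lay between 114 and 2564. In bulk tissue, fewer cells of a type and less RNA per cell cannot be told apart, and this applies to each value that follows.

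The 9 genes spanned a wide range of levels when compared per kilobase of exon. JUNB, a partner of FOS proteins in the AP-1 transcription factor, was highest at 227 ± 50.1 normalized reads per kb (SD, n = 28). It was followed by EGR3 at 129.9 ± 50.8, EGR1 at 114 ± 28.4, FOS at 91.6 ± 23.7 and NR4A1 at 78.8 ± 28.5. ARC had 42.4 ± 12.5, EGR2 16.8 ± 6.78, NPAS4 12.3 ± 5.27 and FOSB 12.0 ± 3.72 normalized reads per kb. From EGR3 down to NR4A1, and from EGR2 down to FOSB, neighbours in this order differed by less than the SD of either. The steps from JUNB to EGR3, from NR4A1 to ARC and from ARC to EGR2 were larger than the SDs. The median over the 13022 genes tested was 160.5 normalized reads per kb, above all of these genes but JUNB. FOSB and NPAS4 stood at the 8.36th and 8.55th percentile of tested genes, and JUNB at the 59.4th.

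In the coordinates of the authors' exon table, whose genome build is not given in the sources used here, FOS lies at 14:137381813-137385216 in 4 exons, FOSB at 19:40367166-40374609 in 4 and JUNB at 19:12502745-12504545 in 1. EGR1 lies at 5:135974569-135978385, EGR2 at 10:69799834-69804211 and EGR3 at 8:22526957-22532494, each in 2 exons. ARC has a single exon at 8:141607656-141610978, NR4A1 has 7 exons at 12:50244248-50252557 and NPAS4 has 8 at 11:7930739-7936438. The exon holding most reads took 70.7% ± 3.25 of FOS (SD, n = 28), 94.8% ± 1.24 of EGR1, 90.5% ± 5.29 of EGR2 and 97.4% ± 1.17 of EGR3. In FOSB that share was 60.9% ± 11.6 and in NPAS4 35.9% ± 8.62, the genes with the lowest values per kb. It was lowest in NR4A1, at 32.5% ± 3.44. The share of the main FOS exon lay between 65.4% and 77.4% over the 28 animals.

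These genes varied more between animals than most. The SD of log2 values over the 28 animals was 0.35 for FOS, 0.45 for FOSB, 0.33 for JUNB, 0.38 for EGR1, 0.56 for EGR2, 0.63 for EGR3, 0.44 for ARC, 0.52 for NR4A1 and 0.63 for NPAS4, against a median of 0.27 over tested genes. EGR3 and NPAS4 were the most variable members, at the 87.7th and 87.6th percentile, and JUNB the least, at the 62.8th. EGR3 ranged from 165 in VHD 3 to 1055 in LD 8, a factor of 6.40, and NPAS4 from 9.93 in VHD 4 to 83.6 in LD 2, a factor of 8.41. Counting error alone would give a coefficient of variation of 5.17% in EGR3, where 39.1% was measured. For NPAS4 the figures were 19.8% and 42.8%, and for FOSB 16.7% and 30.9%, so a larger part of their spread is counting error.

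The design first asks whether heavy intake went with a different level of these genes. All 9 genes reached 10 normalized reads in 5 or more libraries and so were among the 13022 tested. None passed the test between heavy and low drinkers, as 0 of 9 reached an adjusted p under 0.05 in limma with cohort as a term, and 0% of the 13022 genes did. At an unadjusted p under 0.05, limma counted 0 of 9 members against 544 genes, or 4.18%. The quasi-likelihood test of edgeR on recovered reads called no gene, and DESeq2 called 1 gene that was not a member. The fitted difference was above 0 in 6 members and below 0 in 3, with a median of 0.07 on the log2 scale against 0.00 over all tested genes, of which 50% were above 0. Since all cohort 5 animals were heavy, this fit compares intake only within cohorts 4, 7a and 7b, and cohorts 4 and 7b each held 1 heavy animal. The plot of values by drinking category shows the overlap of the groups for every gene.

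**Figure D1:**
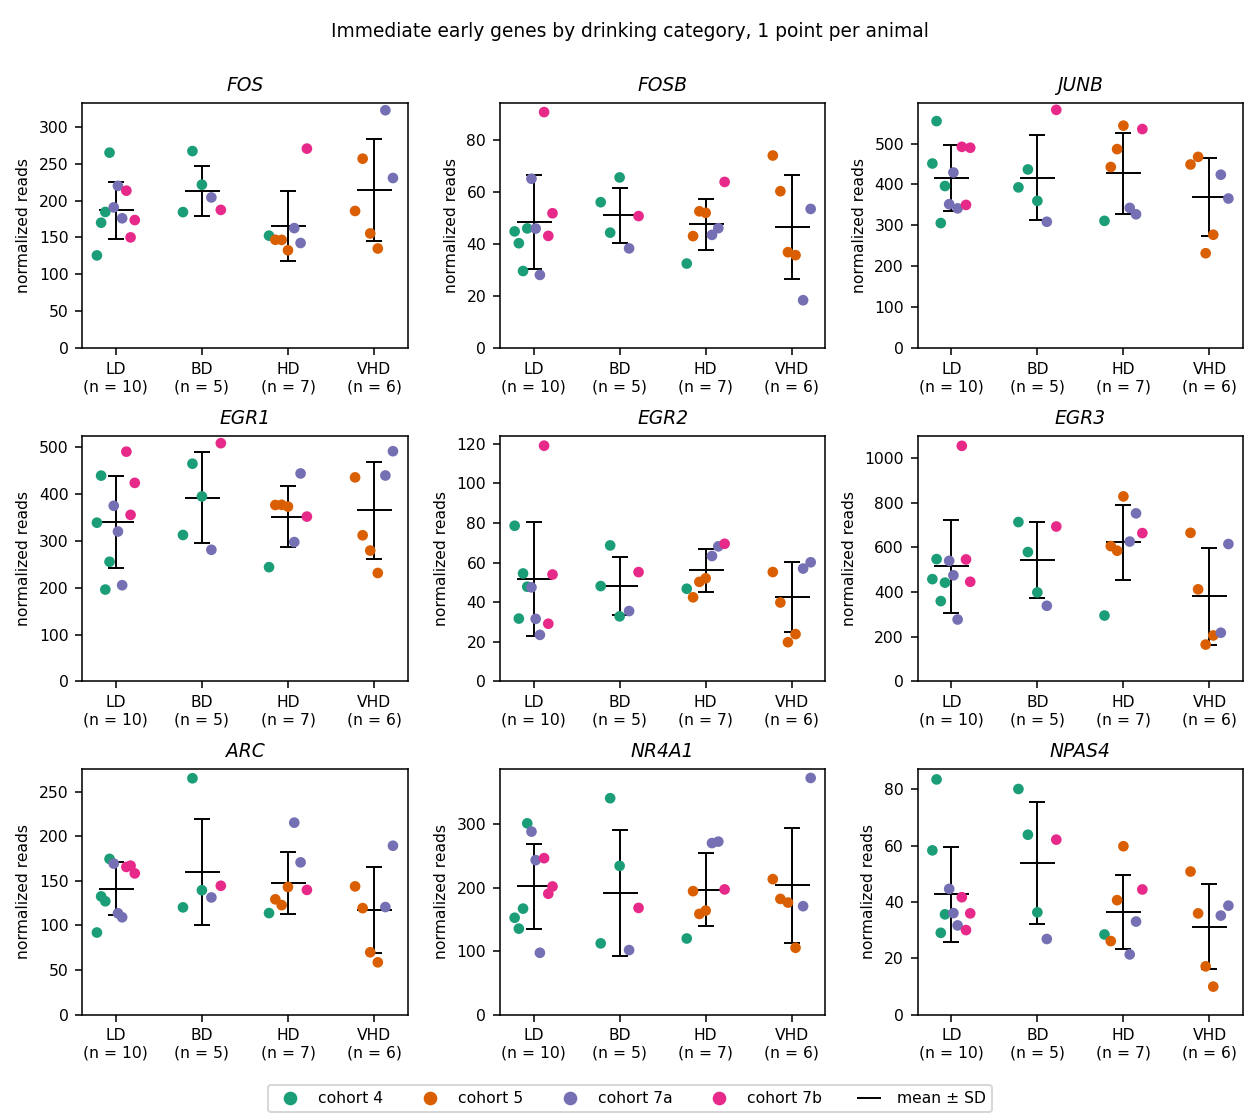
Normalized reads (vertical axis, from 0) of the 9 immediate early genes in each of 28 animals, by drinking category, coloured by cohort, with the mean ± SD of each category. The categories overlap for every gene, and single animals stand above the rest of their category, such as LD 8 at 1055 for EGR3 and HD 7 at 270.4 for FOS.

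FOS, the founding immediate early gene and the AP-1 subunit most used to map active neurons, ran from 125.7 to 265 with a median of 180.3 in the 10 LD animals. The 5 BD animals had 184, 267, 222, 204 and 187. HD animals ran from 132.7 to 270.4 with a median of 146.9, and VHD animals from 135.1 to 322 with a median of 208.2. In HD, 6 of 7 animals lay at or below 163 and HD 7 stood alone above them, while the VHD animals were spread over the whole range. The fitted VHD value was 1.38-fold (95% interval 1.01 to 1.88) that of LD, with limma p = 0.0412 and adjusted p = 0.583. FOS was the only member at an unadjusted p under 0.05 in any comparison of categories, and in VHD vs LD 8.57% of all genes were there. Without the cohort term this limma p was 0.354, and it was also 0.05 or more without any 1 of LD 7, LD 9, LD 10, BD 4, HD 4, HD 7, VHD 2 or VHD 5 (highest 0.202, without VHD 5). Against LD, HD stood at 1.001-fold (95% interval 0.776 to 1.29) and BD at 1.16-fold (95% interval 0.901 to 1.48). Heavy against low drinkers gave 1.05-fold (95% interval 0.810 to 1.35), with adjusted p = 0.998 by limma.

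FOSB, whose truncated product deltaFosB accumulates with repeated stimulation, had means of 46.5 ± 20.0 normalized reads in VHD (SD, n = 6), 47.7 ± 9.80 in HD (n = 7), 48.6 ± 18.1 in LD (n = 10) and 51.1 ± 10.5 in BD (n = 5). The 4 means lay closer together than the SD of any category. The lowest animal, VHD 5 at 18.4, was also the one with most FOS, at 322. Heavy against low drinkers gave 0.890-fold (95% interval 0.642 to 1.23) for FOSB, with adjusted p = 0.998 by limma. JUNB had means of 369 ± 96.2 in VHD, 427 ± 99.7 in HD, 416 ± 80.6 in LD and 416 ± 104 in BD. Its heavy to low ratio of 0.976-fold (95% interval 0.777 to 1.22) had the narrowest interval of the 9 genes on the log scale, with adjusted p = 0.998 by limma. None of these 3 AP-1 genes separated the categories, and their intervals for heavy against low all included 1.

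The EGR genes encode zinc finger transcription factors that follow calcium and MAP kinase signals. EGR1, which is linked to lasting synaptic plasticity, had means of 365 ± 104 in VHD (SD, n = 6), 352 ± 64.3 in HD (n = 7), 340.0 ± 98.6 in LD (n = 10) and 392 ± 96.9 in BD (n = 5). All categories ranged over similar values, from 196 in LD 3 to 509 in BD 5. Heavy against low drinkers gave 1.07-fold (95% interval 0.820 to 1.41), with adjusted p = 0.998 by limma.

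EGR2, also known for its role in hindbrain patterning and myelination, had the largest difference between heavy and low drinkers among the 9 in the fit with a cohort term, though it did not pass the threshold. It ran from 23.47 to 119 with a median of 47.62 in LD. The BD animals had 48.1, 68.6, 32.8, 35.5 and 55.2. HD ran from 42.43 to 69.5 with a median of 52.02, and VHD from 19.77 to 60.1 with a median of 47.50. HD animals kept to a narrow band inside the LD range, and LD 8 lay far above all others at 119. The heavy to low ratio was 1.43-fold (95% interval 0.977 to 2.10), with p = 0.0648 and adjusted p = 0.998 by limma. Without the cohort term it was 1.02-fold, with limma p = 0.895. HD against LD gave 1.51-fold (95% interval 0.982 to 2.32) with p = 0.0598 and adjusted p = 0.995 by limma.

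Within cohort 7a, the only one with all 4 categories, the EGR2 values of the intake groups did not overlap. The 4 heavy animals had 63.3, 68.2, 57.0 and 60.1 normalized reads, and the 4 low animals had 47.5, 31.6, 23.5 and 35.5. Over all tested genes, 1.51% were likewise higher in every heavy than in every low animal of cohort 7a, and EGR2 was the only member to be so. In the opposite order, 0 members and 2.04% of genes were separated. The difference of mean log2 values was 0.87 in cohort 7a, -0.07 in cohort 4 and 0.29 in cohort 7b, and a test of whether it differed between cohorts gave p = 0.337 and adjusted p = 0.887 by limma. Some tissue marker lists also separated heavy from low in the same 8 animals, and others did not. The 3 GABAergic markers summed to 7169 to 11173 in the heavy and 11189.8 to 19822 in the low animals. The 5 central amygdala markers summed to 2243 to 3350.1 and 3641 to 6648, with no marker at 0 in every library. Striatal sums were likewise apart, at 3509 to 4093 in the heavy and 5609 to 21002 in the low animals. Cholinergic sums overlapped, at 27.1 to 9410 and 121 to 6226, as did oligodendrocyte sums, at 41395 to 80636 and 50345 to 76484. The sums of the neuron, astrocyte and microglia markers overlapped too. The part of tissue content in the EGR2 difference was not tested.

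EGR3, a target of EGR1 and of neurotrophin signalling, had the widest gap between HD and VHD. It ran from 276.9 to 1055 with a median of 466.5 in LD. The BD animals had 714, 579, 398, 339 and 693. HD ran from 294.7 to 828 with a median of 626.2, and VHD from 164.7 to 665 with a median of 315.0. The VHD animals fell into 3 at 165, 206 and 218 and 3 between 412 and 665, and the first 3 lay below every other animal. Against LD, the fit gave 0.689-fold (95% interval 0.400 to 1.18) for VHD with adjusted p = 0.716 and 1.23-fold (95% interval 0.787 to 1.93) for HD with adjusted p = 0.995, both by limma. Those 3 VHD animals also carried the highest cholinergic sums, 14178, 11881 and 9409.7, against 27.1 to 6226 in the other 25.

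ARC encodes a capsid-like protein that is translated near active synapses and drives removal of AMPA receptors from the membrane. It had means of 117 ± 48.2 in VHD (SD, n = 6), 148 ± 34.9 in HD (n = 7), 141 ± 29.7 in LD (n = 10) and 160.1 ± 59.4 in BD (n = 5). VHD 4 and VHD 3 had the least, 58.6 and 69.8, and BD 2 the most, 265. Heavy against low drinkers gave 1.07-fold (95% interval 0.796 to 1.45), with adjusted p = 0.998 by limma.

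NR4A1, an orphan nuclear receptor also called Nur77, had means of 204 ± 90.2 in VHD, 197 ± 57.2 in HD, 202 ± 66.9 in LD and 192 ± 98.9 in BD. The 4 means lay closer together than the SD of any category, while the animals ran from 97.4 in LD 7 to 373 in VHD 6. Heavy against low drinkers gave 1.16-fold (95% interval 0.791 to 1.69), with adjusted p = 0.998 by limma. NPAS4, a neuron-specific factor induced by calcium entry that shapes inhibitory synapses, ran from 29.05 to 83.6 with a median of 36.01 in LD. The BD animals had 80.2, 63.9, 36.3, 26.9 and 62.2. HD ran from 21.37 to 59.8 with a median of 33.05, and VHD from 9.932 to 50.8 with a median of 35.56. The highest NPAS4 values belonged to cohort 4 (LD 2, BD 1), the lowest to VHD 4 and VHD 3 of cohort 5, and the categories overlapped. Heavy against low drinkers gave 0.847-fold (95% interval 0.547 to 1.31), with adjusted p = 0.998 by limma. Without the cohort term NPAS4 stood at 0.722-fold, the farthest from 1 of the 9, with p = 0.0413 and adjusted p = 0.99 by limma.

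**Figure D2:**
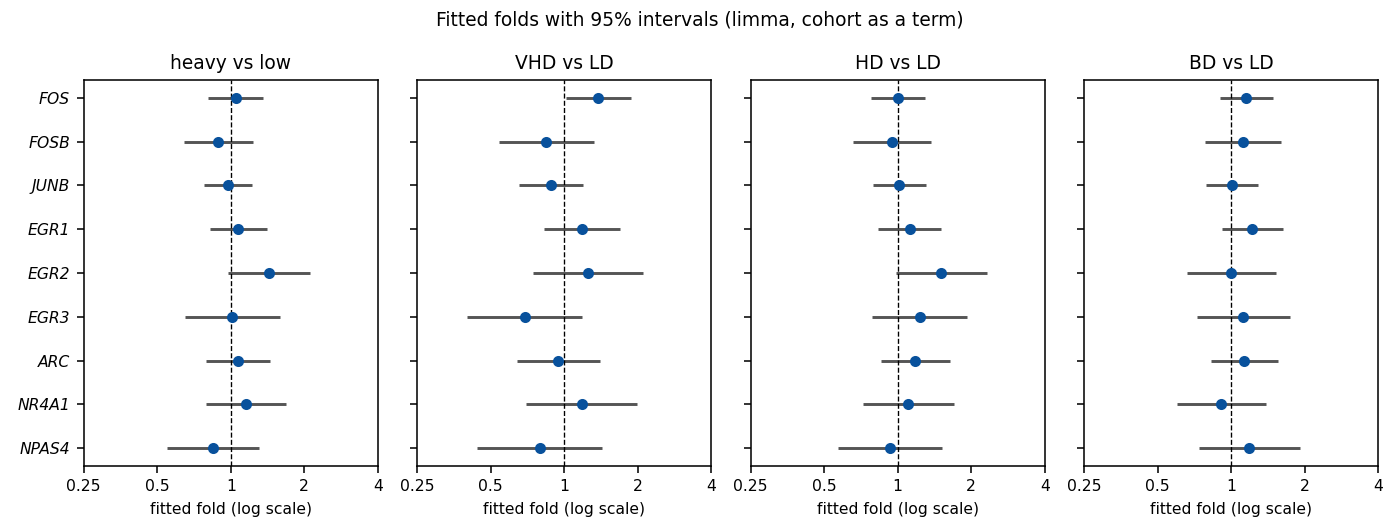
Fitted folds of the 9 immediate early genes (points, log axis) with 95% intervals (lines) from limma with cohort as a term, for heavy against low drinkers and for VHD, HD and BD against LD. Of the 36 intervals, the 1 that leaves out a fold of 1 is FOS in VHD against LD, whose unadjusted p rose to 0.354 without the cohort term.

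Among single categories, 0 of 9 members passed the threshold in VHD vs LD, HD vs LD or BD vs LD, where limma called 0% of the 13022 genes each time. At an unadjusted p under 0.05 limma counted 1 member in VHD vs LD (8.57% of all genes), 0 in HD vs LD (3.96%) and 0 in BD vs LD (3.52%). For edgeR the count of genes called was 0 in these 3 comparisons, and DESeq2 called 4, 1 and 0 genes, none of them a member. The 3 comparisons share the LD animals. Their fitted differences were above 0 in 4 of 9 members for VHD, 7 of 9 for HD and 8 of 9 for BD, where 52.5%, 47.9% and 46% of all tested genes were above 0. The members were correlated with each other, as described below, so their signs are not independent. Some of these log2 differences were small, such as 0.0018 for FOS in HD and 0.0026 for EGR2 in BD. Both of these changed sign when certain single libraries were left out. The member medians were -0.08, 0.15 and 0.16 on the log2 scale beside 0.01, -0.01 and -0.01 over all tested genes. In VHD vs LD all 3 GABAergic markers (median -0.81 on the log2 scale, 3 at an unadjusted p under 0.05), all 5 tested striatal and all 5 tested central amygdala markers had a fitted difference below 0. All 5 oligodendrocyte and all 3 cholinergic markers had one above 0. In HD vs LD all 3 cholinergic markers (median -2.26, 2 at an unadjusted p under 0.05) and all 3 GABAergic markers (median -0.53, 1 such) had one below 0. None passed the threshold by limma, and their part in the member values was not tested. The plot of fitted folds shows how wide the intervals are. For EGR3, NR4A1 and NPAS4 the intervals of VHD against LD ran from 0.400 to 1.18, from 0.700 to 1.98 and from 0.439 to 1.43. The VHD animals came from cohorts 5 and 7a only, and cohort 5 held no LD animal, so only the 2 VHD and 3 LD animals of cohort 7a met within a cohort.

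Cohorts differ in age and in the mix of categories, and no member passed the test between them. An F test of cohort with category as a term called 0 of 9 members and 0% of all genes in limma. At an unadjusted p under 0.05 it counted 0 members and 1225 genes, or 9.41%, and DESeq2 called 19 genes, none of them a member. Adjusted p-values by limma ran from 0.636 for FOS to 0.908 for NPAS4. Cohort 7b held the highest mean of FOSB, JUNB, EGR1, EGR2, EGR3 and ARC. EGR3, for example, had 681 ± 231 normalized reads in cohort 7b (SD, n = 5) against 474 ± 134 in cohort 4 (n = 8), 495 ± 245 in cohort 5 (n = 7) and 480.2 ± 188 in cohort 7a (n = 8). NPAS4 was highest in cohort 4, at 51.9 ± 22.6, and NR4A1 and FOS in cohort 7a, at 227 ± 96.4 and 206 ± 55.3. Each of these gaps was smaller than the sum of the SDs beside it.

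Within cohorts the direction of heavy against low was mixed for all 9 genes. The difference was above 0 in 0 of 9 members in cohort 4, where HD 1, also 1 of the 3 shallowest libraries, was the only heavy animal. It was above 0 in 7 of 9 in cohort 7a and in 6 of 9 in cohort 7b, where HD 7 was the only heavy animal. The share of all tested genes above 0 within each cohort was not computed, so these counts are descriptions only. The interaction of intake with cohort called 0 of 9 members and 0% of all genes in limma. At an unadjusted p under 0.05 it counted 0 members and 6.1% of genes, with the lowest adjusted p at 0.816 for EGR1. edgeR called no gene and DESeq2 2 genes, none of them a member.

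Most of the 9 genes moved together from animal to animal. Across 28 animals the 36 pairs of members had a median Pearson r of 0.438 on log2 values, and 35 of 36 were above 0. All 84779731 pairs of tested genes had a median of 0.00345, with 50.4% above 0, and the member median lay at their 90.8th percentile. Of the member pairs, 12 reached an r of 0.5, against 6.20% of all pairs. By a permutation test with 100000 resamples, adjusted over the 36 pairs, 21 pairs passed 0.05 by r and 19 by Spearman's rho, with 16 in common. These points share their library, so depth, tissue content and scaling are common to both genes of a pair.

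The closest pair was JUNB and NPAS4, with r = 0.729 (permutation p = 4e-05, adjusted p = 0.0006, with rho = 0.733, permutation p = 7e-05). Within cohorts 4, 5 and 7a its r was 0.842, 0.867 and 0.409, and without the 2 animals farthest from the median of JUNB (VHD 3 and VHD 4) it was 0.626. FOSB and EGR3 followed with r = 0.708 (permutation p = 5e-05, adjusted p = 0.0006, with rho = 0.634, permutation p = 0.00055). Here r was 0.515, 0.705 and 0.849 within those cohorts and 0.594 without the 2 farthest animals (VHD 5 and LD 8). ARC and NR4A1 had r = 0.692 (permutation p = 2e-05, adjusted p = 0.0006, with rho = 0.748, permutation p = 1e-05), the last p being the smallest that the resamples can give. Their r was 0.818, 0.715 and 0.717 within cohorts and 0.600 without VHD 4 and BD 2. In these 3 pairs r was above 0 in each of the 3 cohorts, and none was computed in cohort 7b, the smallest with 5 animals.

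EGR3 and EGR1 each passed with 7 of the 8 other members, at a median r of 0.629 and 0.504. EGR2 passed with 6, ARC, NR4A1 and NPAS4 with 5, JUNB with 4 and FOSB with 3. FOS stood apart, with 0 of 8 and a median r of 0.203. Its r with EGR3 was -0.0315 (permutation p = 0.872, adjusted p = 0.872) and with its AP-1 partner JUNB 0.205 (adjusted p = 0.350). The highest r of FOS was 0.380 with NR4A1, where the permutation p was 0.0457 and the adjusted p 0.0685, and where rho was 0.437 with adjusted p = 0.0380. In cohort 4 alone FOS followed ARC with r = 0.892, and in cohort 7a r was -0.412. Whether FOS differed from the other members in its correlation was not tested. The map of pair correlations shows the pale FOS row.

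**Figure D3:**
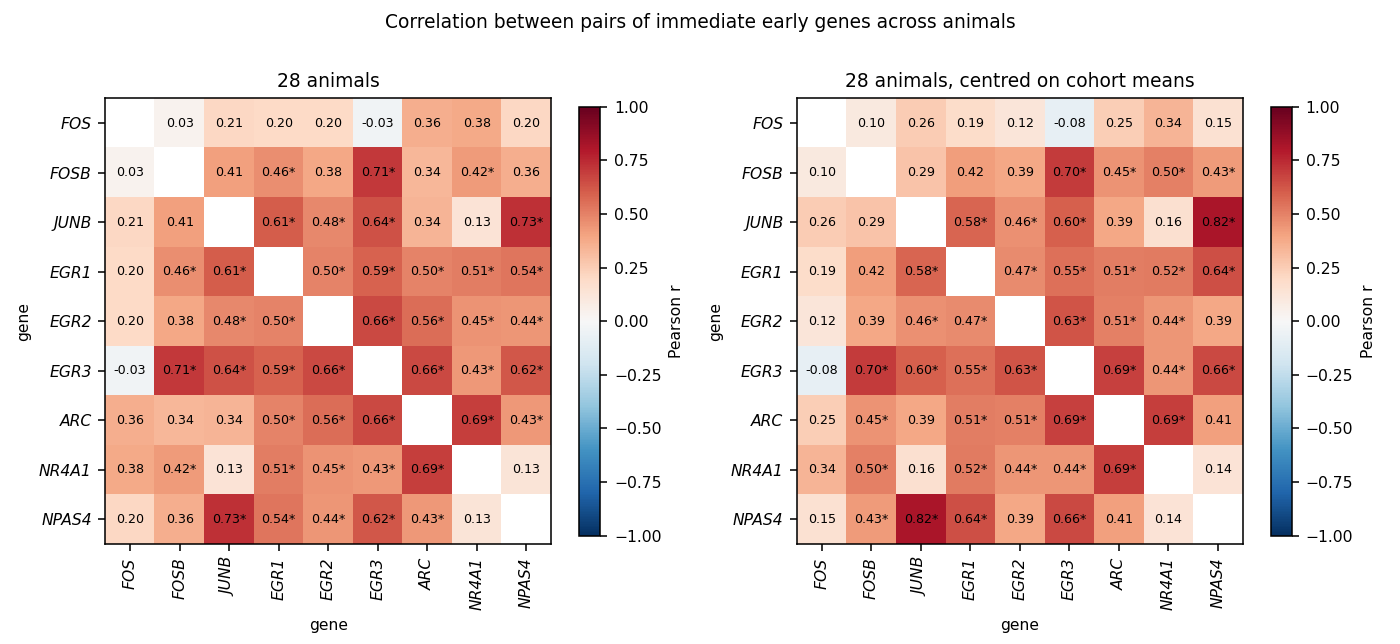
Pearson r between each pair of the 9 immediate early genes on log2 values over 28 animals, as measured (left) and after centring on cohort means (right), on a colour scale from -1 to 1, where a star marks an adjusted permutation p under 0.05. The row of FOS holds no star on either side, while EGR3 has 7 of 8 on both.

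Centring on cohort means left the picture close to this, with 20 pairs past the threshold, 18 of them the same, and a median r of 0.441. All pairs of tested genes, centred in the same way, had a median r of 0.00433. Of the 3 cohorts read alone, cohort 5 had the highest median over the 36 pairs, 0.772, with all 36 above 0 (7 animals). In cohort 4 the median was 0.239 with 29 above 0 (8 animals), and in cohort 7a 0.323 with 24 above 0 (8 animals). Pairs of all tested genes were not computed within single cohorts. These medians therefore do not show whether the members differed there from other genes. Cohort 5 contained VHD 3 and VHD 4, the lowest animals in most members. Without both, chosen for removal after their values were seen, 5 pairs passed, with a median r of 0.347 over the 36. These 5, all among the 21, were FOSB with EGR3, JUNB with EGR1, JUNB with NPAS4, EGR1 with EGR3, and ARC with NR4A1. Leaving out VHD 4 alone gave 12 pairs and leaving out LD 7 alone gave 13.

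The animals at the ends of this shared pattern are seen in the map of all animals. VHD 4, VHD 3 and LD 7 were below the mean in 9 of 9 members, with a mean log2 deviation of -0.88, -0.72 and -0.55. LD 8 and HD 7, both of cohort 7b, were above the mean in 9 of 9, by 0.59 and 0.32. The block of LD 8 also had the highest striatal sum of the 28, 44112. Its sum of 4 choroid plexus and ependyma genes, 1419, was the highest as well, and the part of this content was not tested. VHD 4 was among the lowest 3 animals in 8 members and VHD 3 in 5. For VHD 4 this meant 9.93 normalized reads of NPAS4, 58.6 of ARC and 23.8 of EGR2, against medians of 36.0, 136 and 49.2 over the 28. These low and high animals came from different categories, and LD held both LD 7 and LD 8. VHD 5 split the set, with the most FOS of all animals and the least FOSB.

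**Figure D4:**
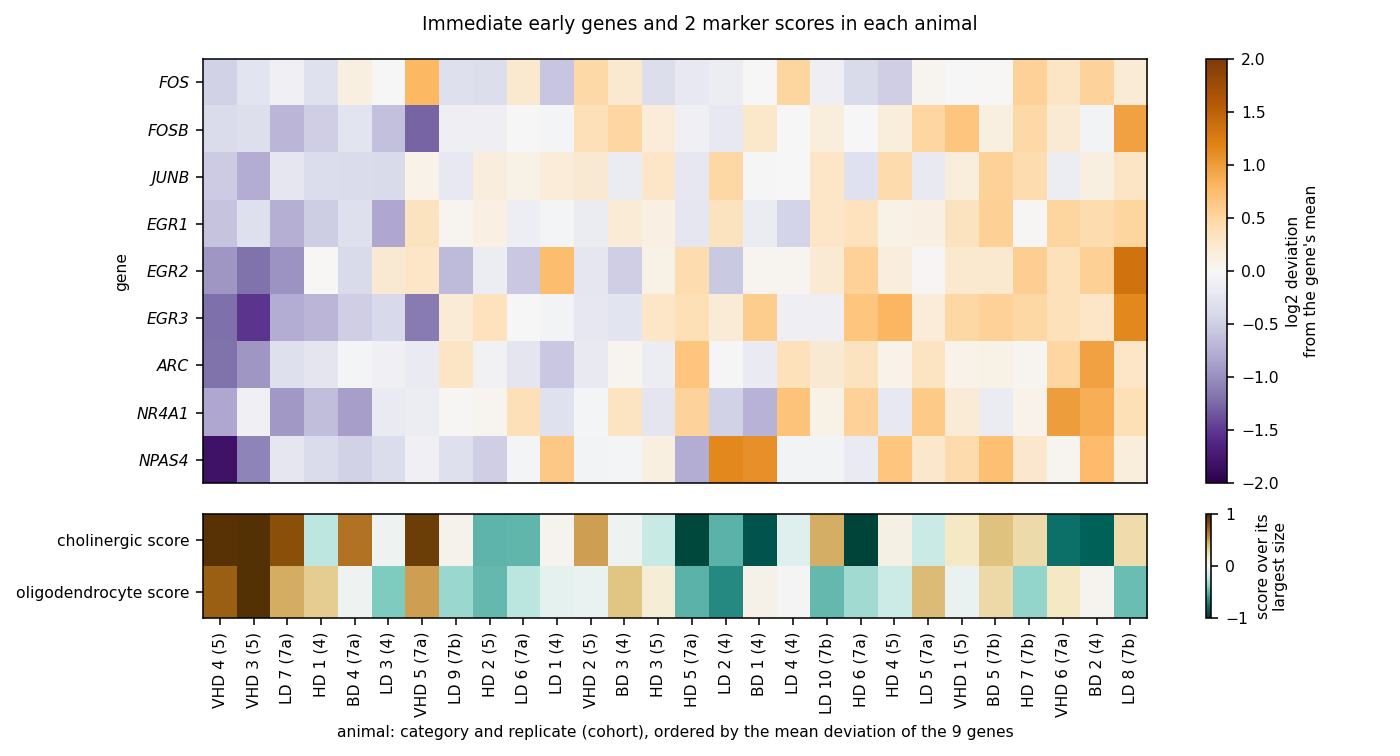
Upper map: log2 deviation of the 9 immediate early genes (rows) from each gene's mean in each of 28 animals (columns, ordered by the mean deviation). Lower map: cholinergic and oligodendrocyte marker scores of the same animals, each divided by its largest size. VHD 4 and VHD 3 on the left are low in all 9 genes and high in both scores.

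Tissue content moved with several members. Each gene was set against library depth and 11 marker scores, each the mean centred log2 value of a marker list. This made 108 relations, and 7 passed after adjustment over them. The share of all tested genes that follow these scores was not computed. These counts therefore do not show whether the members follow them more than other genes do. EGR3 fell with the cholinergic score, with r = -0.620 (permutation p = 0.00033, adjusted p = 0.00891, with rho = -0.504, permutation p = 0.00695, adjusted p = 0.0694). Its r was -0.771, -0.858 and -0.961 within cohorts 4, 5 and 7a and -0.475 without the 2 animals farthest from the median of the score, VHD 3 and VHD 4, where the adjusted p was 0.0771. EGR3 also fell with the oligodendrocyte score, with r = -0.672 (permutation p = 0.00011, adjusted p = 0.00864, with rho = -0.498, permutation p = 0.00810, adjusted p = 0.0694). Within the cohorts this r was -0.279, -0.908 and -0.656, and without the same 2 animals it was -0.477, also with an adjusted p of 0.0771.

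ARC passed with 4 marker scores, or 8 without the 3 shallowest libraries. It rose with the score of neurons, with r = 0.562 (permutation p = 0.00179, adjusted p = 0.0276, with rho = 0.473, permutation p = 0.0115, adjusted p = 0.0827), and r was 0.806, -0.0948 and 0.947 within cohorts and 0.382 without BD 2 and HD 5. It fell with the microglia score, with r = -0.648 (permutation p = 0.00021, adjusted p = 0.00864, with rho = -0.556, permutation p = 0.00240, adjusted p = 0.0648). Within cohorts that r was -0.775, -0.434 and -0.850, and without HD 5 and VHD 4 it was -0.528. ARC fell with the astrocyte score too, with r = -0.569 (permutation p = 0.00178, adjusted p = 0.0276, with rho = -0.546, permutation p = 0.00307, adjusted p = 0.0663), with -0.724, -0.309 and -0.786 within cohorts and -0.534 without HD 5 and VHD 5. Centred on cohort means, the astrocyte relation missed the threshold (r = -0.577, adjusted p = 0.0506), and the other 3 passed. With the cholinergic score ARC had r = -0.602 (permutation p = 0.00052, adjusted p = 0.0112, with rho = -0.449, permutation p = 0.0175, adjusted p = 0.111). This r was -0.450, -0.817 and -0.758 within cohorts and -0.432 without VHD 3 and VHD 4, where the adjusted permutation p was 0.114.

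JUNB rose with the score of striatal medium spiny neurons, with r = 0.641 (permutation p = 0.00024, adjusted p = 0.00864, with rho = 0.687, permutation p = 0.0001, adjusted p = 0.0108). Its r was 0.486, 0.798 and 0.182 within cohorts and 0.623 without LD 8 and HD 4. Centred on cohort means, this relation no longer passed (r = 0.543, adjusted p = 0.0745). By rho, 2 of the 108 relations passed, JUNB with the striatal score and JUNB with the GABAergic score. The last had r = 0.508 (permutation p = 0.00569, adjusted p = 0.0526, with rho = 0.638, permutation p = 0.00037, adjusted p = 0.01998). The GABAergic relation had r = 0.477, 0.971 and 0.184 within cohorts and 0.588 without HD 5 and BD 2. FOS, FOSB, EGR1, EGR2, NR4A1 and NPAS4 passed with no score by r over all 28 libraries. Without the 3 shallowest, NR4A1 passed with 5 scores and FOSB with 1, while FOS, EGR1, EGR2 and NPAS4 again passed with 0. No member passed with depth, the nearest being NR4A1 with r = 0.482 (permutation p = 0.00737, adjusted p = 0.0526, with rho = 0.522, permutation p = 0.00513, adjusted p = 0.0694), 0.724, -0.147 and 0.720 within cohorts and 0.433 without BD 1 and LD 1. When the cholinergic and oligodendrocyte scores were regressed out of each member, a step added after the data were seen, 12 pairs of members passed with a median r of 0.361. Of these, 10 were among the 21, and the other 2 were FOS with ARC and FOS with NR4A1.

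**Figure D5:**
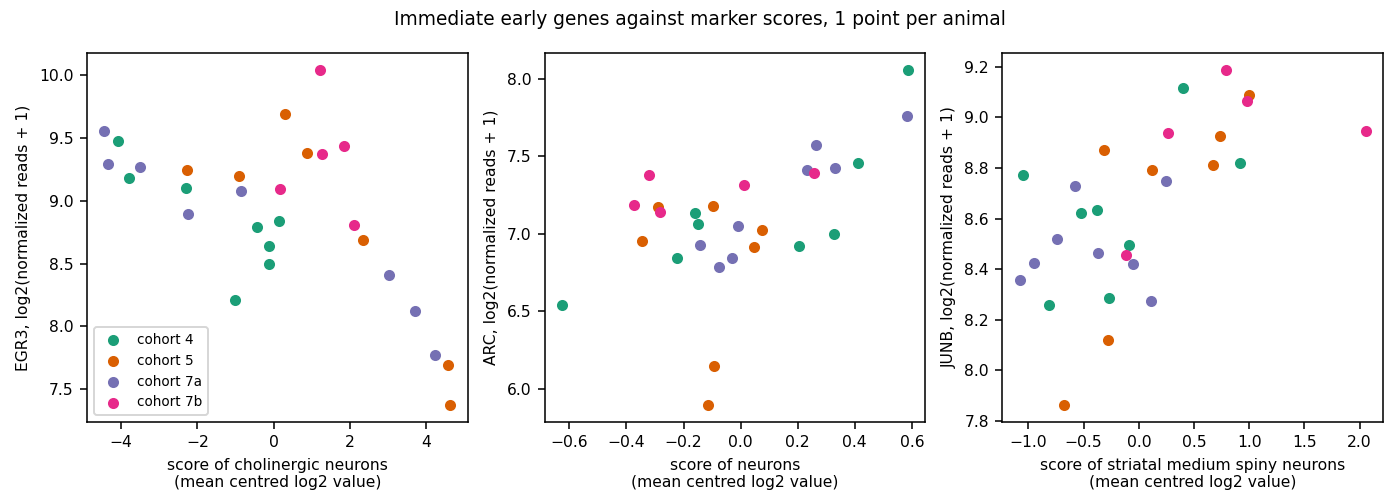
EGR3, ARC and JUNB (log2 of normalized reads + 1) against the marker scores of cholinergic neurons, all neurons and striatal medium spiny neurons, 1 point per animal, coloured by cohort. EGR3 falls with the cholinergic score (r = -0.620), ARC rises with the score of neurons (0.562) and JUNB with the striatal score (0.641).

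The genes most like the mean of the 9 members over the 28 animals, by Pearson r on log2 values, were NGEF (0.851), CHRM1 (0.840), PURB (0.812), CAMKK1 (0.808) and RHOBTB2 (0.807). CHRM1 encodes the M1 muscarinic acetylcholine receptor and CAMKK1 a kinase upstream of the CaM kinases. NAA60, RIN1, TSPAN7, AGAP2 and RPS6KA4 completed the 10 nearest, with r of 0.805 to 0.798. EGR3 was closest to AGAP2 (0.957), CHRM1 (0.945) and SYNPO (0.930), which encodes the spine apparatus protein synaptopodin. ARC was closest to DLG3 (0.861), a synaptic scaffold, CRMP1 (0.860) and BAP1 (0.853). These r are descriptions, chosen as the highest among all tested genes with a mean of at least 50 normalized reads. The member mean averages log2 deviations that were not scaled, so the most variable members, EGR3 and NPAS4, weigh more in it. The part of tissue content in these r was not tested.

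Each other member had its own neighbours. EGR1 lay nearest to PER2 (0.816), a circadian clock gene, followed by FBXO11 (0.722) and PPP1R2 (0.719). EGR2 lay nearest to MOXD1 (0.802), ATP2B1 (0.800), a plasma membrane calcium pump, and YPEL1 (0.784). JUNB lay nearest to EGR4 (0.787), another immediate early gene of the EGR family, B3GNT9 (0.778) and OSBPL2 (0.776). FOSB lay near EMX2 (0.742), a forebrain transcription factor, and DLGAP3 (0.739). NR4A1 lay nearest to ST6GAL2 (0.817), RNF112 (0.777) and KCNJ9 (0.774). NPAS4 lay near JUNB (0.729) and PIP5K1A (0.717). FOS had the weakest neighbours, GOLPH3 (0.592), QARS (0.587) and RHOC (0.577).

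Genes that act around the 9 members were read from 4 further lists, and 0 of their tested members passed the threshold in any comparison by limma. Of 17 other immediate early transcription factors, 14 were tested, and their median fitted difference between heavy and low drinkers was 0.05 on the log2 scale (8 above 0, 6 below). The smallest p-values belonged to JUN at 1.22-fold and IER2 at 0.858-fold, followed by CSRNP1 at 1.16-fold and KLF4 at 0.826-fold. All 20 activity-regulated effectors were tested, with a median of 0.14 (15 above 0, 5 below) beside 0.00 for all tested genes. Among them the clock gene PER1 stood at 1.32-fold (95% interval 1.05 to 1.66) with p = 0.0190 and adjusted p = 0.998 by limma. PTGS2, which encodes the inducible cyclooxygenase, stood at 1.55-fold, GADD45B at 1.19-fold and GADD45G at 0.751-fold.

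Of 17 feedback and stress-responsive early genes, 16 were tested, with a median of 0.00 (8 above 0, 8 below). DUSP4, a phosphatase that switches off MAP kinases, stood at 1.38-fold (95% interval 1.01 to 1.89) in heavy drinkers, with p = 0.0422 and adjusted p = 0.998 by limma. In VHD against LD it stood at 1.80-fold (95% interval 1.21 to 2.67), with p = 0.00503 and adjusted p = 0.531 by limma. TRIB1 stood at 1.20-fold, CYR61 at 0.732-fold and PPP1R15A at 0.926-fold for heavy against low. Of 18 upstream regulators, 16 were tested, with a median of 0.02 (10 above 0, 6 below). Against the same LD animals, HD had 16 of 16 above 0 (median 0.11) and VHD had 13 of 16 below 0 (median -0.16). Over all tested genes, 47.9% were above 0 for HD and 52.5% for VHD. In VHD vs LD, 4 of the 16 regulators, all lower, were at an unadjusted p under 0.05 by limma, as were 8.57% of all genes. The part of tissue content in these differences was not tested. For heavy against low, MEF2C stood at 1.26-fold, ELK1 at 0.854-fold, MEF2A at 1.08-fold and CAMK2A at 1.13-fold. In VHD against LD, ELK1, a ternary complex factor that acts with SRF at the FOS and EGR1 promoters, stood at 0.610-fold (95% interval 0.422 to 0.882) with p = 0.0107 and adjusted p = 0.531 by limma.

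The lists differed in how closely they tracked the member mean across animals. Upstream regulators had a median r of 0.477 with it, and 8 of 16 reached 0.5. These included SRF (0.725), the serum response factor, CAMK2A (0.715) and MKL2 (0.709). Other immediate early transcription factors had a median of 0.231 with 4 of 14 at 0.5 or more, led by EGR4 (0.753) and CSRNP1 (0.566), and KLF6 had -0.498. Feedback genes had a median of 0.220 with 4 of 16, led by NAB2 (0.772), a corepressor of EGR proteins, and TRIB1 (0.735). Activity-regulated effectors had a median of 0.0800 with 2 of 20, HOMER1 (0.655) and PLK2 (0.588). Over all tested genes the median was -0.0408, and 5.46% reached 0.5. The genes named here were picked after their r was seen, and no test was made of the lists. EGR3 and NPAS4 weigh more in the member mean than the less variable members, and the part of tissue content was not tested.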

How the data were processed

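Total RNA from 1 dissected block per animal was sequenced as stranded, ribosomal RNA-depleted libraries on an Illumina HiSeq instrument, 4 per lane, per the labels' protocols. The submitters' processing notes name CASAVA, FastQC, STAR 2.3.0e and edgeR. Genome build, annotation and the strand setting of the counting are not given in the sources used. The authors deposited a signal for each gene, its reads times a library's upper-quartile factor, and for each exon a score, which is the same value as a rounded whole number. Division by a column's smallest step gave whole reads, to within 0.02, for 100% of gene values. Each table has 30 columns, of which 2 match no sample described in the labels and were not used here.

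The 13022 genes that reached 10 in 5 or more libraries were tested on log2(value + 1), computed from the deposited values, with limma 3.58.1 in R 4.3.3, a mean-variance trend and cohort as a term. Folds are on that scale, which understates changes of low genes. p-values were two-sided and adjusted by Benjamini-Hochberg over all tested genes. Count tests by edgeR 4.0.16 (quasi-likelihood) and DESeq2 1.42.0 on the recovered reads were alternatives. Correlations have two-sided permutation p-values with 100000 resamples (smallest possible 1e-05), adjusted over 36 pairs or 108 relations.

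The labels give no replicate numbers, so animals were numbered within a category in accession order. Libraries of 1 category differed by 9.93 to 113 times the variance of counting over 91 pairs, so none was counted as a repeat of another. The members, the gene lists and the marker lists were chosen with earlier results of these data known. All 9 members were named, and of each other list the up to 4 genes with the smallest p for heavy vs low. For likeness, the rule took the 10 genes with a mean of at least 50 and the highest r with the member mean, and 3 per member; a few genes under these rules are not reported here. Genes outside the rule are described as picked after their values were seen or for a comparison of categories. The scripts were tested on simulated data. Alternatives were another pseudocount (0.5 or 8), no filter or one of 50, TMM scaling, the count tests, no cohort or category term, cohort 7a alone, centred values, Spearman's rho, and left-out libraries.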

Additional observations from a re-analysis of the deposited data

Results flagged for a closer look

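In 4 of 72 groups (9 genes by 4 categories and 4 cohorts), 1 animal stood far from the others, with a gap to its nearest neighbour that took an unusually large part of the group's range. Chance gives about 1 such group in 20. HD 7 had 270.4 normalized reads of FOS, and the next HD animal had 163. LD 8 had 1055 of EGR3, and the next LD animal had 548. BD 2 had 265 of ARC, and the next BD animal had 144. The cortical and basolateral glutamatergic sum of BD 2, 2353, was the highest in BD, and its part in the ARC value was not tested. In cohort 5, VHD 2 had 257 of FOS, and the next animal of that cohort had 186. LD 8 and HD 7 were above the mean in 9 of 9 members and BD 2 in 8, while VHD 2 was above it in 3.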

How the results depend on the processing

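No member passed the threshold with any of 28 libraries left out or under the other alternatives run (0 of 9 throughout), which were 10 for heavy vs low, 9 each for VHD, HD and BD vs LD and for cohorts, and 8 for heavy vs low by cohort, and the lowest adjusted p of a member was 0.327. Of the 36 member folds, 18 kept their sign in each setting run for their comparison and 18 turned in at least 1; the cause was not tested. Without a cohort term the log2 difference for heavy vs low turned to -0.096 in FOS, -0.13 in EGR3 and -0.17 in ARC, for VHD vs LD to -0.23 in EGR2 and -0.019 in NR4A1, for HD vs LD to -0.19 in FOS, 0.024 in FOSB and -0.017 in NR4A1, and for BD vs LD to -0.0096 in JUNB. Without the 3 shallowest libraries it turned to 0.075 in JUNB for heavy vs low, 0.032 in ARC for VHD vs LD, and 0.026 in FOSB and 0.088 in NPAS4 for HD vs LD. Cohort 7a alone gave 0.031 for JUNB in heavy vs low. For BD vs LD, EGR2 turned to -0.0068 with a pseudocount of 8 and to -0.057 in edgeR and in DESeq2.

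Leaving out 1 library at a time, the differences that turned for heavy vs low ran from -0.078 to 0.2 in FOS, -0.097 to 0.075 in JUNB, -0.013 to 0.27 in EGR1 and -0.1 to 0.26 in EGR3. For VHD vs LD they ran from -0.49 to 0.14 in FOSB, -0.29 to 0.034 in ARC and -0.059 to 0.44 in NR4A1. For HD vs LD they ran from -0.2 to 0.096 in FOS, -0.18 to 0.047 in FOSB, -0.03 to 0.16 in JUNB, -0.045 to 0.44 in NR4A1 and -0.19 to 0.11 in NPAS4. For BD vs LD they ran from -0.087 to 0.1 in JUNB, -0.13 to 0.12 in EGR2, -0.021 to 0.28 in ARC and -0.37 to 0.15 in NR4A1.

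The 21 correlated pairs of members became 12 to 26 with 1 library left out (median r 0.387 to 0.478), the fewest without VHD 4 (12) and LD 7 (13). They became 5 without VHD 3 and VHD 4 and 12 on residuals of the cholinergic and oligodendrocyte scores, both chosen after seeing the data, and stayed between 19 and 22 in the other 7 alternatives. The 7 relations with marker scores became 19 without the 3 shallowest libraries (all 7 among them), 6 centred on cohort means (5 of the 7) and 2 by Spearman's rho (1 of the 7). Without VHD 3 and VHD 4, a choice made after seeing the data, 10 relations passed. Those of EGR3 and ARC with the cholinergic score, and of EGR3 with the oligodendrocyte score, were then not among them. No paired analysis was possible because the labels carry no replicate numbers shared between groups. The depth of BD 1, where 3 reads equal 24.1 normalized reads, limits its values of FOSB, EGR2 and NPAS4.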
